A study of Mus musculus with 15 samples.

Results

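The genes of the cytosolic ribosome were examined in liver and lung RNA-seq libraries of male wild type C57BL/6J mice fed a control diet (CS group) or a diet with 2% phytosterols (PS group). The genes were chosen by name and biotype: protein-coding genes whose symbol is Rpl or Rps followed by a number, with the stalk genes Rplp0, Rplp1 and Rplp2 and the laminin receptor gene Rpsa. This rule gave 80 of the 54532 genes in the tables, 49 of the large subunit and 31 of the small subunit. Another 3 genes with a matching symbol (Rpl6l, Rpl32l and Rps4l) are annotated as pseudogenes and were left out. Livers came from 4 CS and 5 PS mice and lungs from 3 CS and 3 PS mice, and 6 of the 9 mice gave both tissues. The labels give an age of 28 weeks for every animal, while the feeding schedule in the study's methods adds up to an older age. Total counts ran from 14410117 to 17625179 per liver library and from 17934930 to 19396057 per lung library.

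A ribosome joins a large and a small subunit, and each subunit holds ribosomal RNA and one copy of most of its proteins, so cells make these proteins in matched amounts. Many of their mRNAs begin with a C followed by a run of pyrimidines, the 5′ terminal oligopyrimidine (TOP) tract, through which the kinase complex mTORC1 and the binding protein LARP1 govern their translation. These mRNAs are short and abundant, and the mouse genome carries many processed pseudogenes copied from them.

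RefSeq promoters (GRCm38.p6) were matched by symbol to 60 of the 80 genes. The letters CTTTCC, a short pyrimidine run of the kind found in TOP tracts, were present on the sense strand between 20 bases before and 50 bases after the annotated start in 18 of the 60 (30%), against 3.79% of 27025 genes. The longer run CTCTTTCC, which holds the shorter motif, was present in 7 of the 60 (11.7%) and in 0.363% of all genes. On both strands of the whole 300 bases, CTTTCC was present in 32 of the 60 (53.3%) and in 29.3% of all genes. The windows below run from 10 bases before the start to 20 after it, with CTTTCC in capitals. They are shown for the lung calls Rpl28 and Rpl24, and for Rps10 and Rpl4, uncalled genes among the 5 largest and 5 smallest lung values. Rpl38 and Rps27, among the 5 smallest liver values, are shown too. The windows are a selection and hold CTTTCC more often than the 60 genes do.
Rpl28 (chr7:4792955-4792984, plus strand): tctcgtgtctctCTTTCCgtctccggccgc
Rpl38 (chr11:114668570-114668599, plus strand): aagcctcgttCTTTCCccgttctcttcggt
Rps27 (chr3:90213629-90213658, minus strand): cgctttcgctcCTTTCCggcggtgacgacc
Rps10 (chr17:27635225-27635254, minus strand): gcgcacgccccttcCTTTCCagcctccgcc
Rpl24 (chr16:55966265-55966294, plus strand): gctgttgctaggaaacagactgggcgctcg
Rpl4 (chr9:64173377-64173406, plus strand): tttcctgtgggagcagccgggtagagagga

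Each tissue carried the markers of its label. The summed level of 7 hepatocyte markers ran from 90258 to 143336 CPM (counts scaled to a common library size) in the livers and from 6.95 to 151 CPM in the lungs. The summed level of 8 markers of alveolar type 2 cells, the surfactant-producing cells of the lung, ran from 20985 to 35676 CPM in the lungs and from 14.1 to 42.6 CPM in the livers. In bulk tissue, fewer cells of a type and less RNA per cell cannot be told apart.

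Ribosomal protein genes took a larger share of the counts in lung than in liver. The CS livers had 1.43%, 1.92%, 1.31% and 2.41% of their counts on these genes, and the PS livers 1.67%, 1.68%, 1.72%, 1.46% and 1.71%. The CS lungs had 4.13%, 3.83% and 4.13%, and the PS lungs 5.28%, 3.89% and 3.86%. The mean share was 1.77% ± 0.504 (SD, n = 4) in CS liver and 1.65% ± 0.108 (SD, n = 5) in PS liver. The PS livers all lay inside the range of the CS livers. In the lung a single PS library, replicate 1, stood above the other 5, and the other two PS libraries lay inside the CS range.

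**Figure D1:**
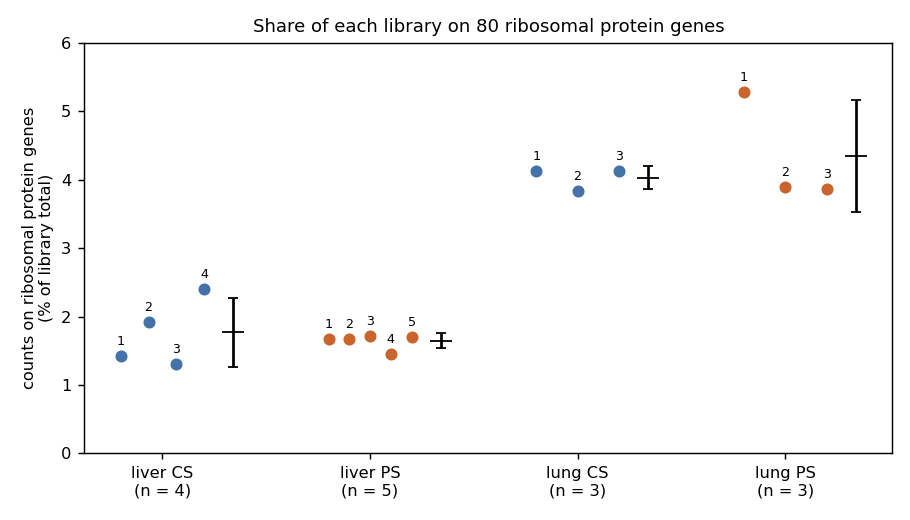
Share of each library's counts (y axis, % of total counts) on the 80 ribosomal protein genes, by tissue and diet. Numbered points are libraries, and black marks are the group mean with its SD. The highest liver is CS replicate 4 at 2.41% and the highest lung is PS replicate 1 at 5.28%.

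Levels were compared between genes on the FPKM scale, which divides by gene length. The highest mean level belonged to Rplp1, a stalk protein that helps recruit the GTPase factors, with 910 FPKM in liver and 2229 in lung. Rpl36 of the large subunit (786 and 1159 FPKM) and Rps15 of the small subunit (497 and 1319 FPKM) followed in both tissues. Rps15 was above Rpl36 in lung and below it in liver, while their ranges over libraries overlapped in both tissues. The annotated lengths of Rplp1, Rpl36 and Rps15 were short, at 499, 383 and 630 bases against 6270 for Rps15a. The order on this scale therefore depends on the length used. Without division by length, Rpl36 had 333 to 706 CPM in the lungs, beside 668 to 1135 CPM for Rpl4 (477 FPKM). The median over the 80 genes was 121 FPKM in liver and 269 FPKM in lung. The tables of the tissues were scaled separately, so levels of a gene across them are given side by side without a test.

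The order of the genes was much alike in the tissues, with a Spearman rho of 0.856 over the 80 genes, which share lengths and sequence between tissues. Rps27l, a paralog of Rps27 known as a p53 target, broke this order. Its level was 268 FPKM in liver, where it ranked 6, and 106 FPKM in lung, where it ranked 71. Its parent Rps27 had the opposite placing, at 124 FPKM and rank 39 in liver and 592 FPKM and rank 9 in lung. Rps2 also moved down the order, from rank 4 in liver at 323 FPKM to rank 42 in lung at 264 FPKM. Rps2 was picked for mention after its values were seen.

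**Figure D2:**
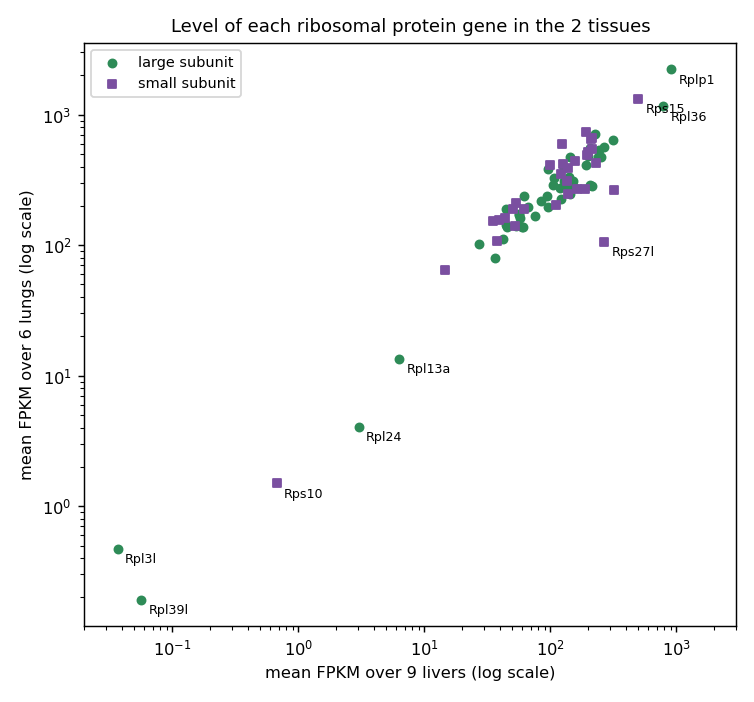
Mean FPKM of each gene over 9 livers (x axis, log scale) and 6 lungs (y axis, log scale), with large-subunit genes as circles and small-subunit genes as squares. Rpl10l, listed at 0 in every library, is not drawn. Rplp1 is highest in both tissues, and Rps27l lies below the line formed by the other genes.

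The tissue-restricted paralogs were close to silent. Rpl10l, a testis paralog of Rpl10, had 0 counts in all 15 libraries. Rpl39l, a paralog of Rpl39 known from the testis, had 0 to 4 counts per liver and 0 to 8 per lung. Rpl3l, the paralog of Rpl3 found in heart and skeletal muscle, had 0 to 3 counts per liver. The CS lungs had 11, 5 and 38 counts of it and the PS lungs 12, 15 and 4, with the highest value in CS replicate 3. The summed level of 8 striated muscle markers in the same lungs was 115, 185, 394, 445, 20.99 and 48.8 CPM in that order. Its main parts were Acta1 (221 CPM) and Ckm (60.4 CPM) in CS replicate 3. In PS replicate 1 they were Myh6 (142 CPM), Myl7 (118 CPM) and Tnnt2 (95.6 CPM). The part of the muscle markers in the Rpl3l values was not tested. All 8 muscle markers passed the filter in lung and none did in liver.

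Some genes of the list have near-identical copies or overlapping annotations. Rps10, which encodes an essential small-subunit protein, had only 602 counts over the 15 libraries, while 4 pseudogenes named after it had 27790. Rpl17 had 38863 counts against 99298 on its 11 named pseudogenes. Of the 80 genes, 72 had at least 1 other annotated transcript at 95% identity over 200 bases, and Rpl21 had the most with 61. The exons of Rpl24 shared 47.0% of their bases with Gm28037 on the same strand, and those of Rps10 shared 20.6% with RPS10-NUDT3, while both partner genes had 0 counts in every library. Counts of these 4 genes are therefore uncertain, and other genes of the list have the same features. Rpl13a, at 6.30 FPKM in liver, shared 35.4% of its exon bases with other genes on the same strand. Rpl7a, Rpl29 and Rps2 had 39, 35 and 32 copies. Rpl24 (3.03 FPKM in liver) and Rps10 (0.672 FPKM) sat far under the median of the list, while Rpl17 (106 FPKM) lay near it.

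The first comparison asked whether the PS diet moved ribosomal protein mRNA in the liver. Of 77 genes that passed the filter on low counts, 0 were called at an adjusted p under 0.05 (edgeR quasi-likelihood test, Benjamini-Hochberg), where 0.00758% of all 13195 genes were called. At an unadjusted p under 0.05 the count was also 0, against 7.55% of all genes. DESeq2 gave 0 of 79 by either measure, where 0.534% of all genes were called and 5.62% passed unadjusted. In 0 of the 77 genes did every PS liver lie above or below every CS liver, against 2.10% and 1.53% of all genes. The median log2 fold change (PS over CS) was -0.07, beside -0.03 over all genes, with 23 genes higher (29.9%, beside 46.1% of all genes) and 54 lower. With limma on log2(FPKM + 1) the split was 39 higher of 77 and the median 0.01. The 95% interval stayed within a log2 fold change of 1 in either direction for 61 of the 77.

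The subunits and the functional groups were read separately in the liver. The median was -0.06 over 46 large-subunit genes and -0.08 over 31 small-subunit genes. The stalk genes were at -0.14 (Rplp0, SE 0.25), -0.15 (Rplp1, SE 0.29) and -0.19 (Rplp2, SE 0.25). Rpl5 and Rpl11, which with 5S RNA bind the p53 regulator MDM2, were at -0.18 (SE 0.34) and -0.03 (SE 0.28). Rps6, the classical substrate of S6 kinase, was at 0.05 (SE 0.18), and Rps27a, which is made as a fusion with ubiquitin, at -0.23 (SE 0.43). The lowest values belonged to Rpl21 at -0.69 (SE 0.76), Rpl41 at -0.55 (SE 0.33) and Rps21 at -0.45 (SE 0.31). The highest were Rpl24 at 0.74 (SE 0.45), Rpl23a at 0.29 (SE 0.25) and Rpl17 at 0.29 (SE 0.43). None of these passed the test.

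Individual livers differed more than the diets did. CS replicate 4 was the highest of the 9 livers for 50 of the 77 genes (64.9%), against 11.4% of all genes tested. CS replicate 3 was the lowest for 43 of the 77 (55.8%), against 11.4% of all genes. The coefficient of variation of a ribosomal protein gene had a median of 44.0% in the CS livers and 20.3% in the PS livers. It was 28.1% and 17.9% for 1364 other genes above a floor near the lower end of these genes' levels, with no upper limit. Without CS replicate 4 the median log2 fold change became 0.17, with 61 of 77 higher, 5 of them at an unadjusted p under 0.05, where 8.30% of all genes passed in either direction, and 0 at an adjusted one. Without CS replicate 1 or 3 it became -0.20 and -0.21, and without PS replicate 4 it was 0.00. The trend of log2 counts with gene length was most negative in CS replicate 4 among the livers (slope -0.10), and the part of this trend in the result was not tested beyond its removal, which left that liver's median deviation at 0.53 from 0.62.

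The same comparison in the lung gave 2 of 78 genes that rose with the PS diet and 0 that fell at an adjusted p under 0.05, where 4.80% and 4.43% of all 16717 genes were called (edgeR quasi-likelihood test, Benjamini-Hochberg). These genes were Rpl28 and Rpl24, both of the large subunit. At an unadjusted p under 0.05 there were 14 higher genes, a share of 17.9% beside 15.6% of all genes, and 1 lower gene, Rpl3, a share of 1.28% beside 14.5% of all genes. The median log2 fold change was 0.26, beside 0.01 over all genes, with 60 genes higher (76.9%, beside 50.4% of all genes) and 18 lower. Every PS lung lay above every CS lung for 14 genes, against 17.3% of all genes, and below it for Rpl3 and Rps4x, against 18.8%.

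Rpl28, a large-subunit protein gene with 4 copies in the transcript set, had 339, 358 and 380 CPM in the CS lungs and 795, 744 and 493 CPM in the PS lungs. The groups did not overlap, and PS replicate 3 was closest to the controls. The log2 fold change was 0.92 (SE 0.21, 1.89-fold, adjusted p = 0.0354 by edgeR with Benjamini-Hochberg). The call was lost with limma on either FPKM scale (adjusted p up to 0.0549). Of its exon bases, 9.95% overlap Ube2s on the opposite strand. In the liver the same gene had 212, 740, 191 and 416 CPM in CS mice and 613, 268, 497, 208 and 341 CPM in PS mice. These groups overlapped over nearly their whole range, with a log2 fold change of -0.02 (SE 0.43).

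Rpl24 had 34, 34 and 32 counts in the CS lungs and 70, 73 and 211 in the PS lungs, or 1.72, 1.75 and 1.74 CPM against 4.14, 4.07 and 11.6 CPM. All PS lungs were higher, and replicate 3 stood well above the other two. The log2 fold change was 1.93 (SE 0.45, 3.81-fold, adjusted p = 0.0374 by edgeR with Benjamini-Hochberg). The call was lost with limma on log2(FPKM + 1), at an adjusted p of 0.0521. These are among the lowest counts of the list, and the gene's overlap with Gm28037 applies to them. In liver Rpl24 ran from 0.993 to 3.77 CPM in CS mice and from 1.85 to 6.53 CPM in PS mice, and these ranges overlapped.

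Rpl21, the gene with the most copies, came next with 206, 202 and 291 CPM in the CS lungs and 551, 537 and 291.1 CPM in the PS lungs. Its log2 fold change of 0.98 (SE 0.27) had an adjusted p of 0.0518 by edgeR with Benjamini-Hochberg. CS replicate 3 and PS replicate 3 were nearly equal for this gene. DESeq2 gave an adjusted p of 0.00346 for Rpl21, and removing the filter, the length trend or the GC trend also took it past the threshold. Rpl17 (0.88, SE 0.39) and Rps10 (0.81, SE 0.46), whose named pseudogenes hold more counts than the genes themselves, were the other two of the 5 largest values and did not pass the test.

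Rpl3, which lies near the peptidyl transferase centre of the large subunit, had the opposite pattern. It had 600, 595 and 636 CPM in the CS lungs and 467, 273 and 475 CPM in the PS lungs, with no overlap. The log2 fold change was -0.59 (SE 0.22), with an adjusted p of 0.115 by edgeR and of 0.0436 by DESeq2, both with Benjamini-Hochberg adjustment. Rpl4 had 1135, 1067 and 1030 CPM against 766, 668 and 1065 CPM (-0.37, SE 0.21). Rps4x, the X-linked small-subunit gene, had 731, 757 and 744 CPM against 715, 455 and 697 CPM (-0.26, SE 0.20). PS replicate 2 was the lowest lung for Rpl3, Rpl4 and Rps4x alike. Rpl34 (-0.28, SE 0.24) and Rpl9 (-0.26, SE 0.24) completed the smallest values beside Rpl3l (-0.69, SE 0.78).

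In the lung the stalk genes were at -0.14 (Rplp0, SE 0.19), 0.14 (Rplp1, SE 0.19) and -0.04 (Rplp2, SE 0.19). Rpl5 was at -0.24 (SE 0.20), Rpl11 at 0.25 (SE 0.22), Rps6 at 0.00 (SE 0.19) and Rps27a at -0.23 (SE 0.35). Rpsa was at 0.15 (SE 0.23), Rpl10 at 0.15 (SE 0.20), Rpl39 at 0.41 (SE 0.23), Rps27 at 0.32 (SE 0.27) and Rps27l at -0.16 (SE 0.23). None of these 12 genes passed the test. The median was 0.26 over 47 large-subunit genes and 0.21 over 31 small-subunit genes. Over the genes with a promoter sequence, the median was 0.32 for 17 with CTTTCC near the start and 0.22 for 41 without, and in the liver -0.05 for 17 and -0.11 for 40.

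**Figure D3:**
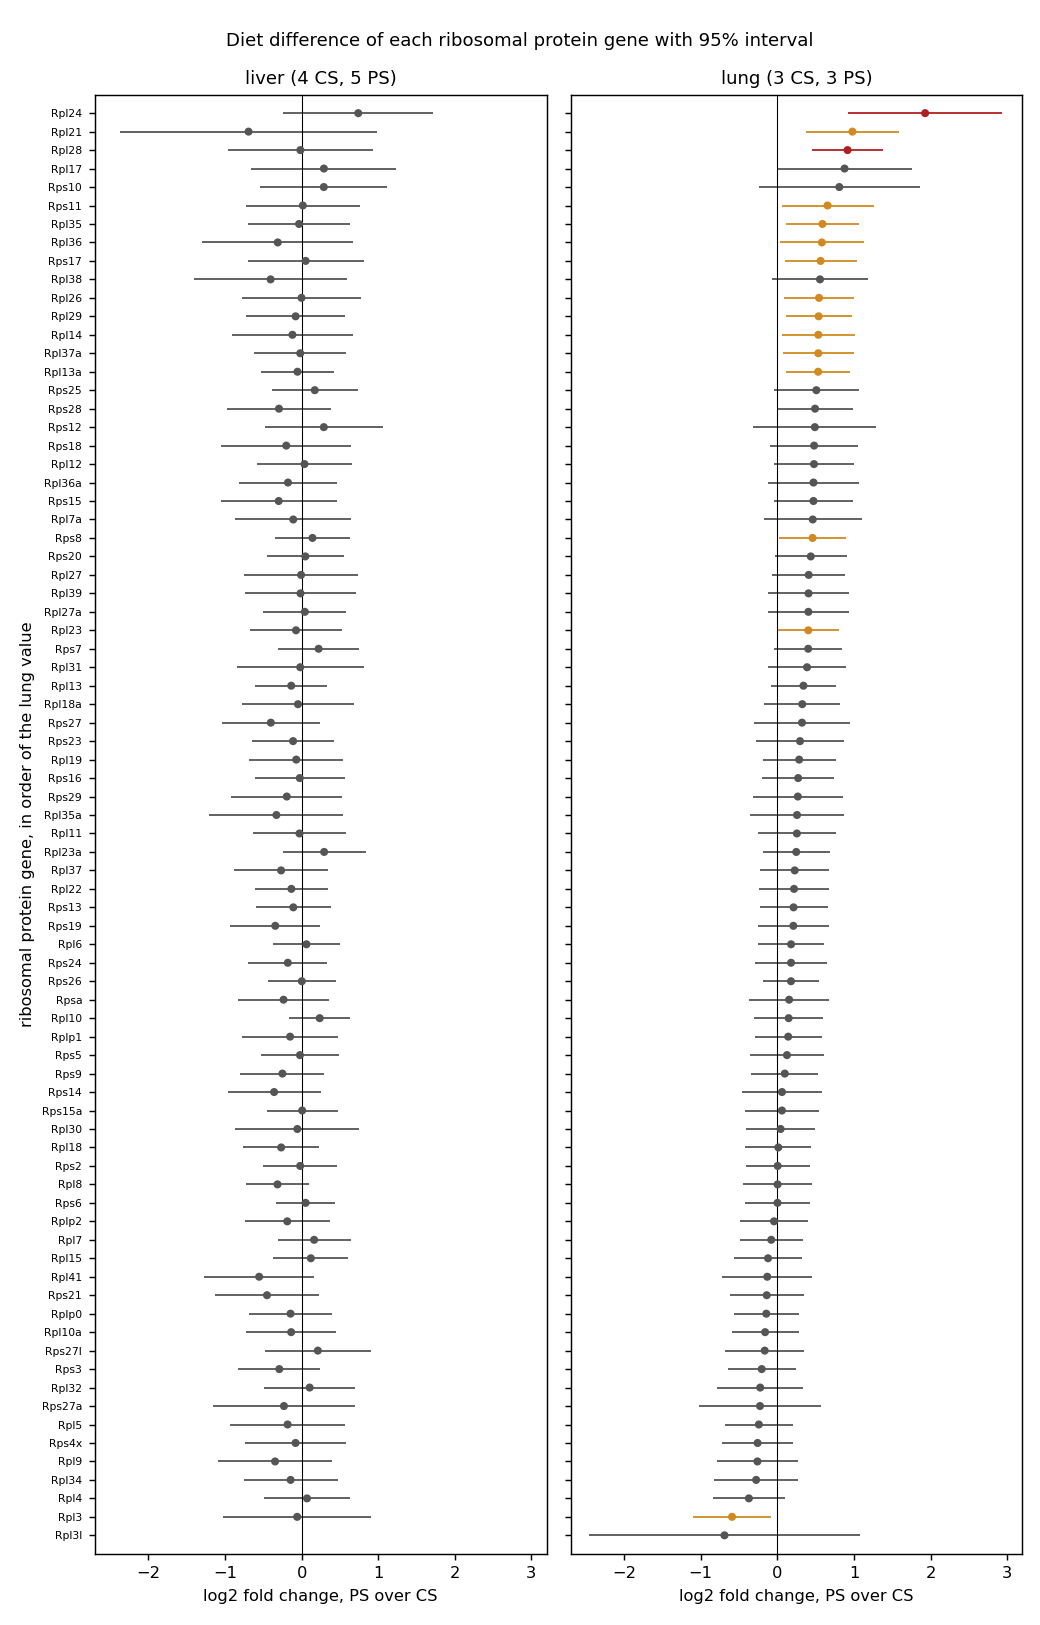
Log2 fold change of PS over CS (x axis) for each gene tested, with its 95% interval, in liver (left) and lung (right), ordered by the lung value. Red marks an adjusted p under 0.05 and orange an unadjusted p under 0.05. In lung Rpl24 and Rpl28 are red and 60 of 78 points lie above 0, while no liver gene is coloured.

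The excess of higher genes in the lung came with a single library. PS replicate 1 was the highest of the 6 lungs for 68 of 78 genes (87.2%), against 17.1% of all genes tested. Without it, 39 of 78 genes were higher and the median log2 fold change was 0.01. The calls of Rpl28 and Rpl24 passed without PS replicate 1 and without PS replicate 3, and failed without PS replicate 2 or any CS lung. In those 4 fits 0 to 26 genes were called in the whole table, at most 0.151%. Without PS replicate 1, 2 genes were called higher, where 17.1% of all genes were called in either direction. Without PS replicate 3, 15 genes were called higher, where 13.2% of all genes were called in either direction. Over the 6 fits with a lung left out, the adjusted p of edgeR (Benjamini-Hochberg) ran from 0.00988 to 0.134 for Rpl28 and from 0.0178 to 0.126 for Rpl24. The fold changes stayed positive in all 6, at 0.78 to 1.10 for Rpl28 and 1.24 to 2.18 for Rpl24.

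Several library measures differed between these lungs. Counts on the mitochondrial genome made up 3.08%, 2.94% and 3.51% of the CS lungs and 6.13%, 7.28% and 3.69% of the PS lungs. The summed alveolar type 2 markers were at 20985 to 22081 CPM in the CS lungs and at 35676, 35275 and 22749 CPM in the PS lungs, with all 8 genes measured and 0 called. The summed level followed Sftpc, the most abundant of them, with 12878 to 13892 CPM in CS and 26850, 27052 and 16305 CPM in PS. Of the 8 markers 3 were higher and 5 lower, with a median of -0.06, and the lowest PS values relative to CS were those of Abca3 (194 to 198 CPM in CS; 62.0, 84.7 and 147 CPM in PS). Of 6 erythroid markers 2 were higher and 4 lower, and Alas2 was called lower in the PS lungs (-1.24, SE 0.28, adjusted p = 0.0354 by edgeR with Benjamini-Hochberg), and the summed level of 6 erythroid markers ran from 2194 to 2716 CPM in CS and from 1516 to 3561 CPM in PS. The striated muscle markers given above were highest in PS replicate 1 (445 CPM, beside 20.99 and 48.8 CPM in the other two PS lungs). The slope of log2 counts on gene length was most negative in PS replicate 1 (-0.08). Removing that trend left its median deviation at 0.40 from 0.48. The part of the mitochondrial share and of the cell markers in the gene values was not tested.

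**Figure D4:**
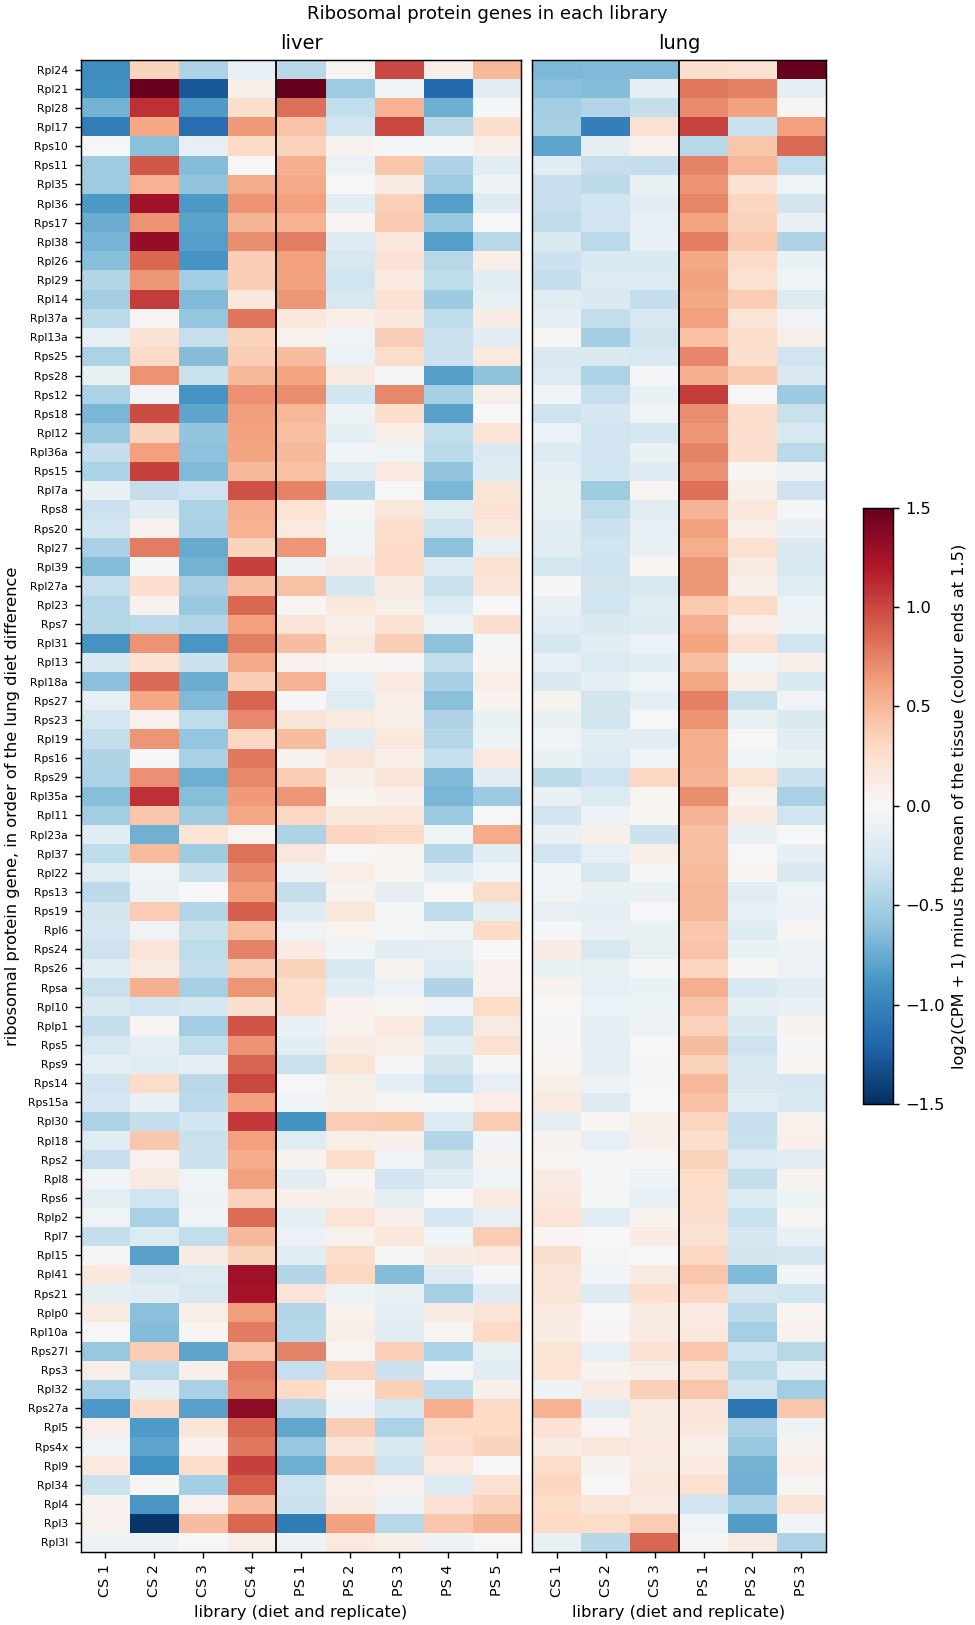
Log2(CPM + 1) of each gene minus its mean over the libraries of the tissue (colour, ends at 1.5), with genes in order of the lung diet difference and a line between the CS and PS libraries. Liver CS replicate 4 and lung PS replicate 1 are high for most genes, and liver CS replicate 2 is high at the top, low at the bottom.

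Some of the genes with the largest lung differences also varied together between livers, in an order that did not follow diet. Rpl28 was highest in the livers CS replicate 2 (740 CPM), PS replicate 1 (613 CPM) and PS replicate 3 (497 CPM). Rpl21 had 346, 179 and 58.5 CPM in these livers and 24.8 to 64.6 CPM in the other 6, so PS replicate 3 was not set apart for this gene. Rpl3 was lowest in the same livers, at 56.9, 76.3 and 119 CPM against 166 to 288 CPM elsewhere, and so was Rpl4, at 251, 368 and 435 CPM against 477 to 638 CPM. These livers had the largest shares of mitochondrial genome counts, 14.4%, 13.3% and 9.79%, while the others had 3.33% to 6.50%. Rpl24, Rps10, Rpl17 and Rpl34 did not follow this order. Rpl24 had 1.85 CPM in liver PS replicate 1, among the lower livers, and Rps10 was lowest in CS replicate 2 at 0.606 CPM. Rpl17 had 109, 97.6 and 147 CPM in the livers above, beside 114 CPM in CS replicate 4. The part of the mitochondrial share in these values was not tested.

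**Figure D5:**
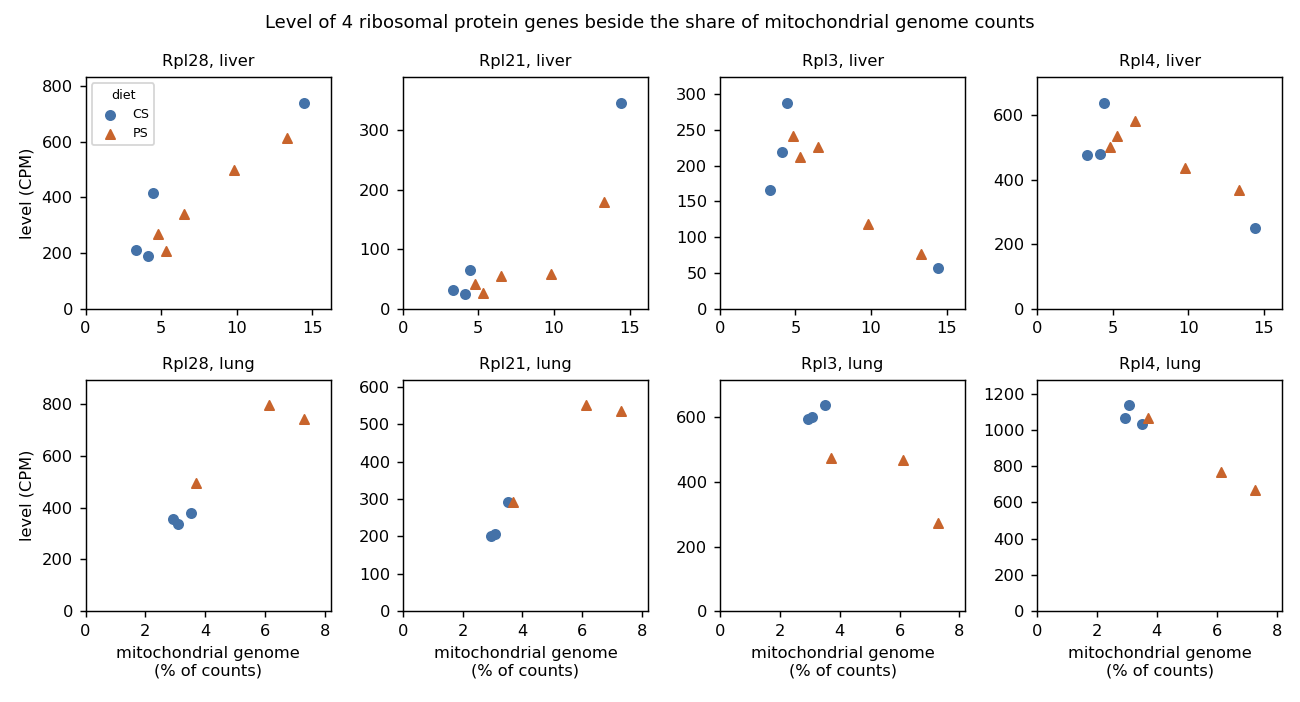
Level of Rpl28, Rpl21, Rpl3 and Rpl4 (y axis, CPM) against the share of counts on the mitochondrial genome (x axis, %) in 9 livers (top) and 6 lungs (bottom), with CS as circles and PS as triangles. Rpl28 is high and Rpl4 low in the 3 livers with shares of 9.79% or more and in the 2 lungs with 6.13% or more. Rpl21 is high in these lungs and in 2 of these livers, and Rpl3 is low in all of them but also in the PS lung with a share of 3.69%.

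The likeness between libraries of different tissues was described over the 76 genes with at least 10 counts in every library. The deviations of the genes in lung PS replicate 2 had a Spearman rho of 0.68 with liver CS replicate 2, 0.75 with liver PS replicate 1 and 0.57 with liver PS replicate 3. Those of lung PS replicate 1 had values of 0.67, 0.79 and 0.54 with the same livers, while those of lung PS replicate 3 had -0.37, -0.63 and -0.23. Over 10572 genes these values were 0.57, 0.53 and 0.41 for PS replicate 2 and 0.24, 0.28 and 0.20 for PS replicate 1. For PS replicate 3 they were 0.32, 0.16 and 0.23, opposite in sign to its values over the 76 genes. Of these pairs, liver and lung PS replicate 1 came from 1 mouse, and so did liver PS replicate 3 and lung PS replicate 2. The liver and lung of the mouse that gave CS replicate 2 had a rho of -0.60. Values were 0.72 for the mouse of CS replicate 1 and 0.35 for that of CS replicate 3. For liver PS replicate 5 and lung PS replicate 3, also of 1 mouse, rho was 0.45. The points are genes that share length and base composition between tissues, and deviations within a tissue sum to 0.

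Whether the diet moved these genes differently in the lung than in the liver was tested by an interaction term over all 15 libraries. Of 78 genes, 0 were called at an adjusted p under 0.05 by edgeR with Benjamini-Hochberg, where 0.0226% of 17696 genes were called, and 0 at an unadjusted p under 0.05, against 10.9% of all genes. DESeq2 also gave 0 of 79 by either measure, where 0.670% of all genes were called and 8.17% passed unadjusted. The median difference (lung minus liver, log2) was 0.32, with 61 of 78 above 0 (78.2%, beside 50.1% of all genes). With the mouse as a block, a fit in which only the 6 mice with both tissues inform the difference, the median was -0.12 and 20 of 78 were above 0. Without liver CS replicate 4 the median was 0.03, and without lung PS replicate 1 it was 0.07. For Rpl28 the difference was 0.89 (SE 0.58), for Rpl24 1.12 (SE 0.68), for Rpl21 1.61 (SE 1.02) and for Rpl3 -0.57 (SE 0.62). The intervals are wide, with a median width of 1.80 on the log2 scale, so a difference of 1.5-fold in a gene of that width was not detectable at this replication.

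Genes around the ribosome were read from lists chosen by function, against 9.22% of all lung genes called in either direction. Ribosomal protein genes whose symbols fall outside the naming rule were read singly. Rps3a1 was at 0.04 (SE 0.29) in liver and 0.01 (SE 0.20) in lung, and Fau, which encodes a small-subunit protein as a fusion, at -0.21 (SE 0.26) and 0.19 (SE 0.22). Rack1, a scaffold on the small subunit, was at -0.03 (SE 0.21) and -0.05 (SE 0.17), and the paralog Rpl22l1 at 0.15 (SE 0.36) and 0.12 (SE 0.16). None of these passed the test in either tissue. Of 17 other TOP and translation genes, 0 were called in liver and 1 in lung, the elongation factor subunit Eef1d (0.52, SE 0.13, adjusted p = 0.0440 by edgeR with Benjamini-Hochberg), and the lung median was -0.09. Of 7 host genes of small nucleolar RNAs, 6 were tested in each tissue and 0 called. Their medians were -0.10 in liver and 0.39 in lung.

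Among 31 ribosome biogenesis genes, 0 were called in liver and 2 in lung, in opposite directions. Nop56, a core protein of the box C/D particles that guide rRNA methylation, had 38.1, 35.4 and 33.7 CPM in the CS lungs and 54.6, 73.7 and 61.5 CPM in the PS lungs (0.82, SE 0.16, adjusted p = 0.0260 by edgeR with Benjamini-Hochberg). Tsr1, a maturation factor of the small subunit, had 10.01, 9.56 and 10.4 CPM against 2.54, 3.18 and 3.59 CPM (-1.68, SE 0.23, adjusted p = 0.0163 by edgeR with Benjamini-Hochberg). Neither gene's groups overlapped. The list's medians were -0.17 in liver and 0.00 in lung.

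Of 17 mTORC1 components and regulators, 0 were called in liver and 1 in lung. Rps6kb2, which encodes an S6 kinase, had 11.0, 14.8 and 16.6 CPM in the CS lungs and 22.9, 48.7 and 56.1 CPM in the PS lungs (1.59, SE 0.32, adjusted p = 0.0290 by edgeR with Benjamini-Hochberg). In the livers the same gene was highest in CS replicate 2 (41.6 CPM) and PS replicate 1 (32.5 CPM), which also had the highest Rpl28. Of 77 mitochondrial ribosomal protein genes tested, 0 were called in liver and 2 in lung, Mrpl4 (0.73, SE 0.13, adjusted p = 0.0221) and Mrps15 (0.68, SE 0.18, adjusted p = 0.0480), both by edgeR with Benjamini-Hochberg. Their medians were 0.02 in liver and 0.14 in lung. Of the ribosomal protein pseudogenes, 0 of 63 tested were called in liver and 12 of 75 in lung, all higher, where 4.80% of all lung genes were called higher, and reads of a pseudogene and its parent may not be told apart.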

How the data were processed

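The authors extracted total RNA from frozen tissue, selected poly(A) RNA and prepared Illumina libraries. The submitters' processing notes list the genome mm10, HISAT2 2.0.5, featureCounts 1.5.0-p3 and DESeq2 1.20.0. The deposited counts are reads per gene without normalization, and the deposited FPKM values divide them by gene length and a scaling factor per library made by the authors. Strand and multi-mapping settings are not given in the sources used here.

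Counts were tested within each tissue with edgeR 4.0.16 (TMM, default filter on low counts, robust quasi-likelihood test, R 4.3.3) on the whole table, with Benjamini-Hochberg adjustment over all genes tested and a threshold of 0.05. CPM values use TMM library sizes. Alternatives were DESeq2 1.42.0 (Wald test), limma 3.58.1 on log2(FPKM + 1) and log2(FPKM + 0.1), other scalings and filters, a replicate block, loess removal (span 0.3) of each library's length trend or, added after the data were seen, GC trend, and each library left out. Scripts were tested on simulated data. Copies were found by BLAST among GENCODE M21 transcripts.

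Groups came from the labels, and mice are the replicates. The gene set and lists were chosen with earlier results of these data known. Named genes are the 5 largest and smallest changes per tissue, calls, the highest and lowest levels, and listed functional genes. Libraries of the same mouse pair the tissues (Pearson correlations of -0.04 to 0.10 over all genes tested), while CS and PS libraries of a number do not pair (-0.34 to 0.10). These correlations use deviations from the mean of each tissue and diet. The Spearman values between tissues given above use deviations from the tissue mean. No replicates were alike within sampling noise. The depth of 14410117 to 19396057 counts per library limits genes with few counts. A further item of the gene lists is not reported here.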

Additional observations from a re-analysis of the deposited data

Results flagged for a closer look

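In groups of 4 or 5 libraries, 64 gene levels and shares were examined for a library far from the others, by its gap to the nearest library as a share of the group's range, which chance alone flags in about 1 of 20 groups. Among the CS livers this share was 0.876 for Rpl21, where replicate 2 was highest (346 CPM against 24.8 to 64.6 in the others). It was 0.965 for Rps21 (177 CPM in replicate 4 against 62.9 to 66.8) and 0.879 for Rpl10 (593 CPM in replicate 4 against 406 to 429).

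Among the PS livers it was 0.817 for the share of counts on ribosomal protein genes, where replicate 4 was low (1.46% against 1.67% to 1.72%). It was 0.792 for Rpl21 (179 CPM in replicate 1 against 26.8 to 58.5) and 0.717 for Rps10 (2.16 CPM in replicate 1 against 1.46 to 1.66). For Rpl39l it was 1, since only replicate 5 had any count (2 counts). The lung groups of 3 were not examined in this way. No cause of these values was tested.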

How the results depend on the processing

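In the lung, DESeq2 called 5 genes as higher and 1 as lower, with 22 higher at an unadjusted p, where 10.4% and 18.6% of all genes passed in either direction. Limma on log2(FPKM + 1) called 0 higher and 8 at an unadjusted p, and on log2(FPKM + 0.1) it called 1 and 9, where 6.49% of all genes were called in both and 29.9% and 29.8% passed unadjusted. Over the 6 fits with a lung left out, 0 to 15 genes were called higher, 3 to 31 were higher and 0 to 3 lower at an unadjusted p, and the median ran from 0.011 to 0.39, while 0% to 17.1% of all genes were called and 21.5% to 35.5% passed unadjusted. In the liver, removal of the length trend gave 2 lower genes at an unadjusted p (8.08% of all genes, either direction), and with a liver left out 0 to 5 were higher and 0 to 2 lower (5.20% to 14.1% of all genes). With a library left out, 0 to 2 genes differed upward between tissues at an unadjusted p (6.94% to 14.9% of all genes, either direction). With the mouse as a block, 1 gene differed downward (5.42% of all genes, either direction) and the median was -0.12. The cause of these shifts was not tested.

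Libraries of CS and PS share only a number, and with that number as a block the median was -0.01 in liver and 0.23 in lung, with 0 and 2 calls (0% and 9.71% of all genes). Of the 161 summary values under alternatives that keep all libraries, 151 kept a count within 1.5-fold or a median within the spread between libraries, as did 144 of the 165 with a library left out, and no called gene reversed. Uncalled single genes changed sign in 119 of 1806 comparisons. Groups of 3 to 5 mice limit what can be called, and Rpl24 and Rps10 rest on few counts.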
